A study of Homo sapiens with 6 samples.

Results

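The unmodified HEK293 Flp-In line, which served as the parent in a study of TRIM71, was described here from its 3 arrays, out of 6 in the series. The members were all arrays that the sample titles call parental, replicates 1 to 3, and the features were the 18404 genes that the array annotation ties to at least 1 probeset with a single gene symbol. The other 3 arrays, of a derived line that constitutively expresses tagged TRIM71, enter no value below. The parental cells are labelled wild-type and grew in DMEM with glutamine and fetal calf serum, and hygromycin B is named only for the derived line. Total RNA, extracted in Trizol and passed over RNeasy columns, was turned into biotin-labelled sense-strand cDNA for hybridisation to Affymetrix arrays. The labels give the arrays replicate numbers and name no separate cultures, so the spread between them may be technical, and their number limits the precision of every value.

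HEK293 cells descend from a culture of human embryonic kidney into which sheared adenovirus DNA was introduced, and they keep viral E1A and E1B genes, whose products bind host proteins such as the RB pocket proteins. A kidney culture holds several cell types, and the line is known for expressing neuronal genes beside epithelial ones, so its tissue of origin has long been debated. Flp-In derivatives carry 1 recombination site for placing a transgene, and the line is widely used as a host for receptors and channels brought in from outside.

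Each value is a log2 expression level after RMA, the robust multi-array average, so a difference of 1 is a factor of 2 in signal. A level depends on the probes as well as on the mRNA, so each gene was set against the whole distribution and against reference genes, not against single other genes. Values are given in the order of replicates 1, 2 and 3, followed by the mean ± SD (n = 3). The percentile of a gene is its place among the 18404 genes by mean level. The median gene stood at 7.71, and the means ran from 2.83 to 13.33.

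A pair of gene sets that are usually silent outside specialised cells gave a scale for the dim end. The 340 olfactory receptor genes, the odour sensors of the nose, had a median level of 4.30, and their 95th percentile, 5.73, is called the olfactory receptor level. The second set joined 67 keratin-associated protein genes of hair, 24 bitter taste receptor genes and 22 beta-defensin genes, and its 95th percentile, the second reference level, lay at 7.79. A gene was counted as above a level when all 3 arrays were above it. By that rule 13902 genes (75.5%) were above the olfactory receptor level and 8779 (47.7%) were above both levels. Both shares are the background against which each list below is read.

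The first level is lenient for some silent families. Of the keratin-associated protein genes 37 of 67 (55.2%) were above it, and their median was 6.20, whereas 2 of 22 beta-defensins were above it and their median was 4.001. Between the levels, from 5.73 to 7.79, a value can therefore not be told from that of silent genes of another family. At the other end, all 28 measured proteasome subunits, all 11 RNA polymerase II subunits and all 8 subunits of the CCT chaperonin, which folds actin and tubulin, were above both levels, with median percentiles of 94.7, 94.8 and 97.1. The genes nearest the first level were TAS2R46, TMPRSS13 and CLEC4F just below it and C1QTNF8, FAM83F and TMEM220 just above it, by mean. In none of these 6 genes did all arrays lie above the level.

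**Figure D1:**
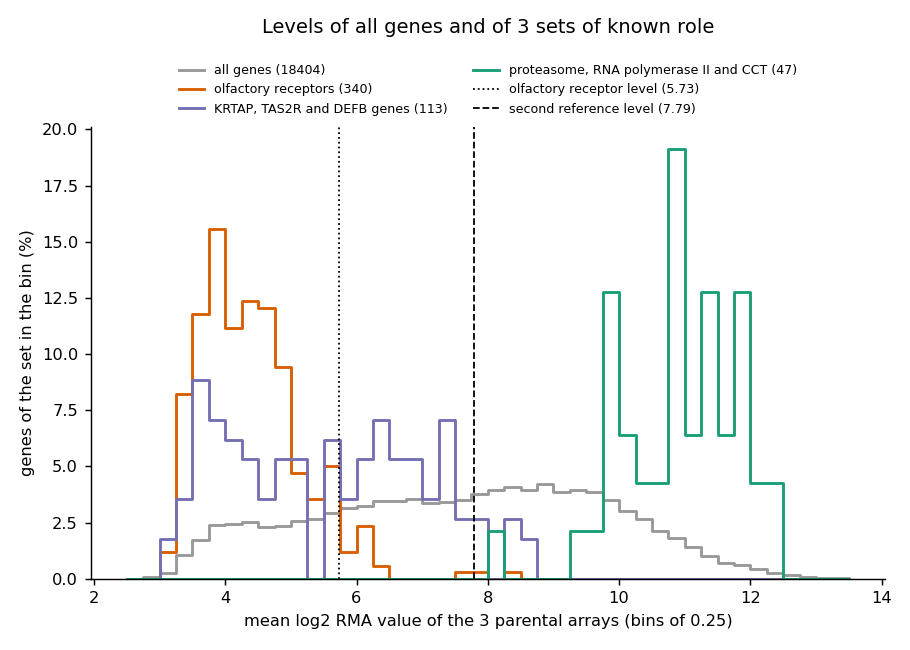
Share of genes in bins of 0.25 of the mean log2 RMA value of the 3 parental arrays, for all genes, the olfactory receptors, the second reference set (KRTAP, TAS2R and DEFB genes) and the proteasome, RNA polymerase II and CCT subunits. Dotted and dashed lines mark the olfactory receptor level (5.73) and the second reference level (7.79), and the subunits of the 3 complexes lie to the right of both lines.

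The promoters of a pair of genes near the top of the distribution, VIM and PHGDH, and of a pair near its bottom, ALB and PTPRC, are shown to put letters beside the levels given below. Each is the 250 bases before the gene start that RefSeq lists on GRCh38.p14, all 4 on the plus strand, at chr10:17227991-17228240 for VIM, chr1:119711684-119711933 for PHGDH, chr4:73404037-73404286 for ALB and chr1:198638790-198639039 for PTPRC. Capitals mark exact matches, on either strand, to the TATA box TATAAA, the GC box GGGCGG, the CCAAT box or the ETS motif CCGGAAGT.
VIM: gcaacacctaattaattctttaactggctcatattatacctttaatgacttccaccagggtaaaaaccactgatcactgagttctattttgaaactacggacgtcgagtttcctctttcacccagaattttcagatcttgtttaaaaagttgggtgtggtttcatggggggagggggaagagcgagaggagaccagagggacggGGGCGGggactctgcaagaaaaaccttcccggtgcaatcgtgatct
PHGDH: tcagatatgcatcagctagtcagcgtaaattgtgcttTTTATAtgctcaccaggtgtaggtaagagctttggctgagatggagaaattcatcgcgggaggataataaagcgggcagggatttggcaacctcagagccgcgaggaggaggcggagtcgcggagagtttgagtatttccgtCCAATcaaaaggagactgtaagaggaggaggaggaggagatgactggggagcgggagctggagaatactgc
ALB: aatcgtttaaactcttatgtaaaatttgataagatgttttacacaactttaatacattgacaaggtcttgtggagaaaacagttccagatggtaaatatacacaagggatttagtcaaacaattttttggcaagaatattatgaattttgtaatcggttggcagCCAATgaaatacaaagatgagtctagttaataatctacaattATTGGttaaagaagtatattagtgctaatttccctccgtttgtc
PTPRC: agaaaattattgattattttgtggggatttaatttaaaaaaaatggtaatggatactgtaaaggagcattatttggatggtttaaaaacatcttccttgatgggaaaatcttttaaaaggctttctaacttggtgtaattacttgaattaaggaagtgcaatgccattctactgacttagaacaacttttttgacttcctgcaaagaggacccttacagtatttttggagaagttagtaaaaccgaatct

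The VIM window held 1 match, a GC box. In the PHGDH window there were 2, a CCAAT box and a TATA box on the opposite strand. The ALB window had 2 CCAAT boxes, 1 on each strand, and the PTPRC window had no match. Over the 14228 measured genes with a listed promoter, the same length of sequence held GGGCGG in 57.5%, CCAAT in 34.4%, TATAAA in 8.60% and CCGGAAGT in 5.21% of cases. The G and C content was 46.0% for VIM and 51.2% for PHGDH, with 8 and 11 CG pairs. It was 30.0% for ALB and 31.2% for PTPRC, with 3 and 1 CG pairs. The median content over the 14228 genes was 63%, in a longer window of 300 bases that included 50 bases after the gene start. VIM and PHGDH were thus below that median, as were ALB and PTPRC. The genes shown are examples, so no relation of composition to level can be read from them. The motif matches describe the letters only, since no binding was measured.

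Some transcription factors of the developing kidney, among them HOXD11, EYA1 and SALL1, read above both levels, as a list no more often than genes at large, while most products of the mature nephron were near or below the reference levels. Of 15 measured kidney development factors, all 15 were above the olfactory receptor level and 7 (46.7%) above both, close to the 47.7% of all genes, and the list median lay at percentile 45.9. HOXD11, a patterning gene needed for the metanephric kidney, read 9.38, 9.38 and 9.32 (9.36 ± 0.03). EYA1, a coactivator phosphatase of the nephron progenitor network, read 9.29, 9.22 and 9.12 (9.21 ± 0.08). SALL1, a zinc finger factor of the metanephric mesenchyme, read 8.95, 9.05 and 8.94 (8.98 ± 0.06). All 3 genes lay above the second reference level in every array.

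SIX2, which keeps nephron progenitors undifferentiated, read 8.29, 8.35 and 8.38 (8.34 ± 0.04), at percentile 59.7. The stromal factor FOXD1 (8.22 ± 0.01), the ureteric bud factor GATA3 (8.15 ± 0.04) and the GDNF co-receptor GFRA1 (8.11 ± 0.11) made up the rest of the 7. Between the levels stood WT1 (7.43 ± 0.01), CITED1 (7.20 ± 0.05), PAX2 (7.15 ± 0.07), EMX2 (7.09 ± 0.06), LHX1 (7.07 ± 0.07), OSR1 (6.82 ± 0.08), PAX8 (6.71 ± 0.13) and MEOX1 (6.26 ± 0.07). PAX2 and PAX8, which mark renal epithelium, were thus no higher than the range that keratin-associated protein genes reach. RET and GDNF were not analysed here.

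Of 16 tubule markers 11 were above the olfactory receptor level and 2 above both. LRP2, the endocytic receptor megalin of the proximal tubule, read 8.90, 8.92 and 9.04 (8.95 ± 0.07, percentile 69.7). MME, the membrane protease neprilysin of the brush border, read 8.50, 8.51 and 8.39 (8.47 ± 0.06). CUBN, the partner of megalin, was not above the first level, at 5.35 ± 0.06. Nor were the water channel AQP1 (5.49 ± 0.08), the organic anion transporter SLC22A8 (5.53 ± 0.12), the kidney cadherin CDH16 (5.58 ± 0.03) and the loop transporter SLC12A1 (3.99 ± 0.16). The median percentile of the tubule list was 29.1.

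Among 5 podocyte markers, the slit diaphragm adaptor CD2AP (10.99 ± 0.08) and the sialomucin PODXL (9.98 ± 0.0049) were above both levels. Both are also known from other cell types. NPHS1, which encodes nephrin and is the most specific of the 5, read 5.35, 5.42 and 5.31 (5.36 ± 0.06) and was below the olfactory receptor level in all 3 arrays. In a bulk RNA sample, few cells with a high level and many cells with a low one cannot be told apart, and that holds for every gene given here.

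Single epithelial markers, among them the keratins KRT8 and KRT18 and the adhesion molecule EPCAM, were bright in the same arrays as vimentin and N-cadherin, while most keratins, cadherins and claudins were not above both levels. Of 16 epithelial markers 13 were above the olfactory receptor level and 9 (56.2%, against 47.7% of all genes) above both. Of 21 mesenchymal markers 14 were above the first level and 7 (33.3%) above both. The list medians lay at percentiles 59.9 and 33.4.

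KRT8, a keratin of simple epithelia, read 11.35, 11.36 and 11.46 (11.39 ± 0.06, percentile 97.2), and its partner KRT18 read 10.19, 10.23 and 10.33 (10.25 ± 0.07). EPCAM, an epithelial adhesion molecule, read 11.18, 11.14 and 11.03 (11.12 ± 0.08), and its other probeset read 11.08. The tight junction scaffold TJP1 (10.85 ± 0.07), the desmosomal plaque protein DSP (10.32 ± 0.03) and the splicing regulator ESRP2 (8.94 ± 0.04) were above both levels as well. CDH1, which encodes E-cadherin, read 8.81, 8.89 and 8.80 (8.83 ± 0.05), at percentile 67.6. The epithelial transcription factors GRHL2 (4.87 ± 0.03) and ELF3 (5.46 ± 0.09) were not above the olfactory receptor level, and OVOL1 (6.05 ± 0.05) was between the levels.

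VIM, the intermediate filament of mesenchymal cells, read 11.11, 11.15 and 11.08 (11.11 ± 0.03, percentile 95.9). CDH2, which encodes N-cadherin, read 11.10, 11.04 and 11.01 (11.05 ± 0.04, percentile 95.5). FN1, the matrix protein fibronectin, read 10.33, 10.42 and 10.28 (10.34 ± 0.08). For each of these genes the lowest array was still far above both levels.

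The repressors of epithelial genes ZEB1 (8.95 ± 0.03), ZEB2 (8.89 ± 0.02) and TWIST1 (8.63 ± 0.02) were above both levels. For ZEB2 this rests on 1 of 2 probesets, since the other read 5.18. SNAI2 (6.28 ± 0.12) and SNAI1 (5.82 ± 0.14), repressors of the same kind, were between the levels. Products of differentiated fibroblasts were dim. DCN (3.67 ± 0.05), LUM (4.19 ± 0.33) and FAP (3.91 ± 0.12), which encode decorin, lumican and a surface protease, were among 7 mesenchymal markers not above the first level, as were THY1 (5.61 ± 0.15), PDGFRB (5.67 ± 0.09), TAGLN (5.31 ± 0.08) and S100A4 (5.87 ± 0.13).

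A few neuronal genes were among the brightest lineage genes, while most of that list was dim. Of 20 neuronal markers 14 were above the olfactory receptor level and 5 (25%) above both, and the list median lay at percentile 37.4. NEFL, the light neurofilament subunit, read 12.41, 12.44 and 12.37 (12.41 ± 0.04) and stood at percentile 99.6. UCHL1, a ubiquitin hydrolase abundant in neurons, read 11.53, 11.57 and 11.55 (11.55 ± 0.02). INA, which encodes alpha-internexin, read 11.03, 10.98 and 10.95 (10.99 ± 0.04). The other neurofilament subunits did not follow, with NEFM at 6.54 ± 0.11, between the levels, and NEFH at 5.15 ± 0.16, below the first.

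ENO2 (9.21 ± 0.06), the neuronal enolase, and NCAM1 (9.02 ± 0.07), a neural adhesion molecule, completed the 5. Genes of the synapse and of growing axons were lower. SNAP25 (7.59 ± 0.08) and SYP (7.39 ± 0.16) were between the levels, and STMN2 (4.996 ± 0.01), DCX (4.51 ± 0.04), ELAVL3 (5.39 ± 0.05), ELAVL4 (4.22 ± 0.05) and GAP43 (5.76 ± 0.04) were not above the first. RBFOX3, which encodes the neuronal nuclear antigen NeuN, had 3 probesets that read 3.61, 6.30 and 7.78, so its level is not settled by these arrays. TUBB3 was not analysed here.

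Of 10 neural progenitor markers 9 were above the first level and 5 above both. These were the RNA-binding protein MSI1 (9.04 ± 0.08), the transcription factors SOX2 (8.80 ± 0.02), PAX6 (8.39 ± 0.02) and SOX3 (8.01 ± 0.12), and the membrane protein PROM1 (8.003 ± 0.13). SOX2, a factor of neural and pluripotent stem cells, read 8.82, 8.79 and 8.78 in the 3 arrays. NES, the progenitor filament nestin, was between the levels at 6.54 ± 0.18, and FABP7 (4.56 ± 0.22) was below both.

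Markers of the adrenal gland, which lies beside the kidney, were mostly dim. None of 13 chromaffin and sympathetic markers was above both levels, and 7 were above the first. The highest was GATA2 (7.30 ± 0.11), followed by TH (6.79 ± 0.11), the rate-limiting enzyme of catecholamine synthesis. DBH (6.36 ± 0.02) and PNMT (6.42 ± 0.14), later enzymes of that pathway, were between the levels, and the granule proteins CHGA (5.50 ± 0.06) and SCG2 (3.87 ± 0.10) were not above the first. Of 8 steroidogenic markers only FDX1, a ferredoxin that many tissues express, was above both (8.85 ± 0.01). CYP11A1 (4.91 ± 0.06), which starts steroid synthesis, and STAR (5.08 ± 0.08) were not above the first level.

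Few markers of other cell types were above both levels. Of 14 leukocyte markers 1 was above both levels, the lysosomal protein CD68 (8.11 ± 0.04), which is not limited to leukocytes. PTPRC, the pan-leukocyte surface phosphatase CD45, read 3.61, 3.34 and 3.64 (3.53 ± 0.16), at percentile 1.53. None of 10 endothelial markers was above both, and PECAM1 (4.40 ± 0.10), KDR (4.99 ± 0.14), TEK (4.67 ± 0.11), VWF (5.11 ± 0.10), CDH5 (5.47 ± 0.09) and TIE1 (5.47 ± 0.13) were not above the first level. None of 4 erythroid, 9 muscle and 7 glial markers was above both levels either, but 1, 6 and 6 of them were above the first, for the glial list 85.7% against 75.5% of all genes. HBB, the beta-globin gene, read 5.10 ± 0.17, and MYOD1, the muscle determination factor, 5.54 ± 0.11. The highest muscle marker was the skeletal actin ACTA1, at 7.74, 7.85 and 7.82, which was above the second reference level in replicates 2 and 3.

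Of 11 hepatocyte markers 2 were above the first level, FOXA2 (7.04 ± 0.17) and APOA1 (6.98 ± 0.03), and none above both. For APOA1 this rests on its brighter probeset, since the other read 4.83, below the first level. ALB, the albumin gene, read 3.88, 3.98 and 3.95 (3.94 ± 0.05, percentile 4.90). Of 8 gut and pancreas markers 4 were above the first level and none above both, the highest being CDX2 (7.77 ± 0.12). Glial markers reached 6.97 ± 0.10 for MBP and 6.76 ± 0.11 for SOX10, inside the range of the second reference set.

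Most measured genes of the pluripotency list were between the levels or below both. Most genes of a mixed list of fetal RNA-binding and let-7 axis genes were above both. Of 12 pluripotency factors 6 were above the first level and 2 above both, and the list median lay at percentile 24.1. The 2 were the DNA methyltransferase DNMT3B (8.71 ± 0.06) and the chromatin protein UTF1 (8.21 ± 0.12). LIN28A (6.13 ± 0.10) and SALL4 (6.09 ± 0.11) were between the levels, and DPPA4 (4.20 ± 0.10), ZFP42 (3.94 ± 0.06), L1TD1 (3.47 ± 0.12) and DPPA2 (3.39 ± 0.02) were below the first. The other probeset of LIN28A read 5.31, below the first level. SOX2, which was counted with the neural progenitor markers, was above both, and POU5F1, NANOG and TDGF1 were not analysed here.

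In the list of fetal RNA-binding and let-7 axis genes, all 9 were above the first level and 8 above both, with a median percentile of 81.2. let-7 is a microRNA family that rises as tissues differentiate, and LIN28 proteins block its maturation. IGF2BP1, an mRNA-binding oncofetal protein, read 11.34, 11.32 and 11.37 (11.34 ± 0.02). LIN28B read 9.70, 9.59 and 9.47 (9.58 ± 0.11), while its relative LIN28A was between the levels by its brighter probeset. The relatives of IGF2BP1 stood at 10.35 ± 0.02 for IGF2BP3 and 9.68 ± 0.05 for IGF2BP2.

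HMGA1, a chromatin architectural protein, read 11.37 ± 0.01 by the highest of its 3 probesets, which spanned 9.21 to 11.37. DICER1, the nuclease that cuts microRNA precursors, read 11.79 ± 0.03. TRIM71, the protein that the study brings in by transgene and that let-7 targets, read 7.23, 7.54 and 7.44 (7.40 ± 0.16). Its 3 arrays all lay between the reference levels, so endogenous TRIM71 mRNA cannot be told from the signal of silent genes of the second set.

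Germ cell genes were the dimmest list, with none of 10 above the first level and a median percentile of 7.13. They ran from SYCP1 (3.32 ± 0.15), of the meiotic chromosome axis, to TEX14 (5.44 ± 0.06). Of 9 cancer-testis antigens, genes normally confined to testis and often active in tumours, 3 were above the first level and none above both. PRAME read 7.49 ± 0.03 and CTAG2 7.43 ± 0.17.

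**Figure D2:**
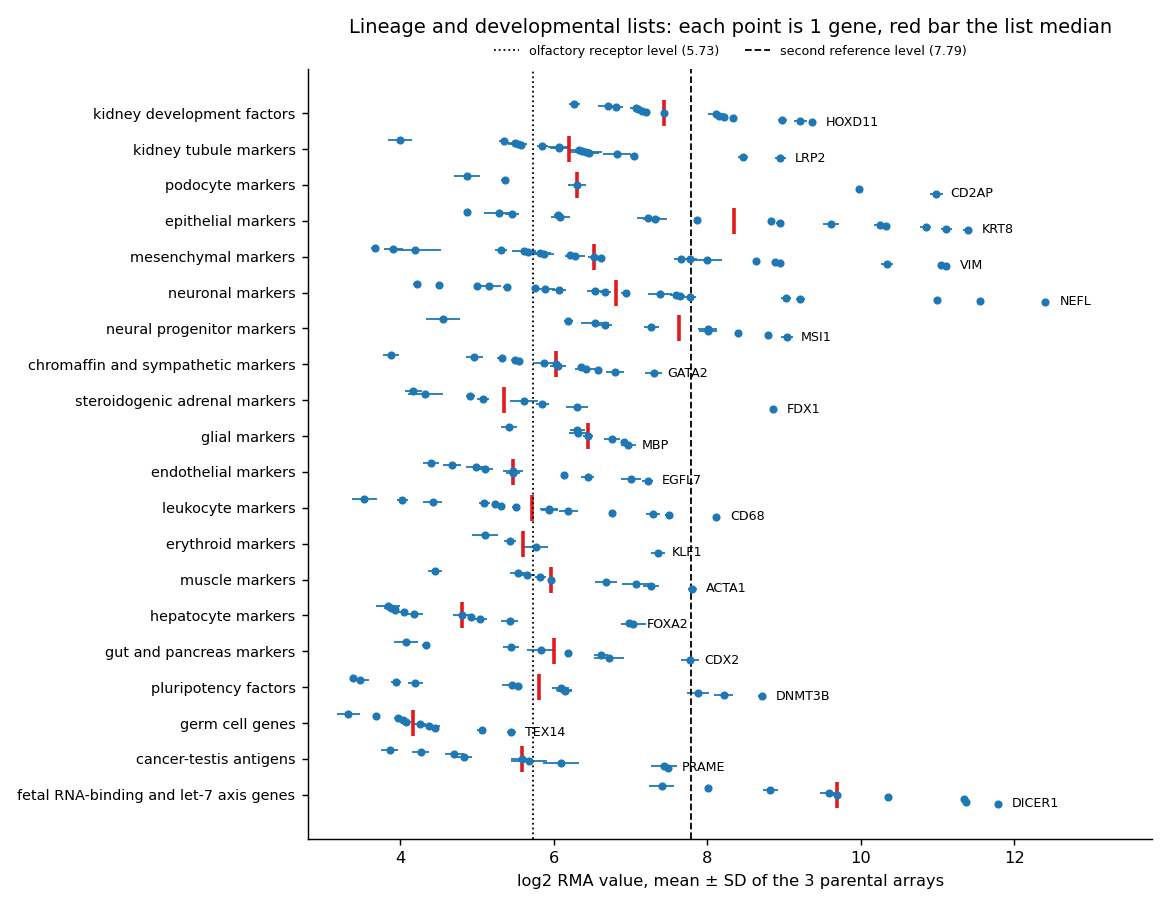
Mean log2 RMA value with its SD over the 3 parental arrays for every measured member of 20 lineage and developmental lists, with a red bar at the list median and the highest member named. Dotted and dashed lines mark 5.73 and 7.79, and single bright genes such as NEFL (12.41), KRT8 (11.39) and VIM (11.11) stand far to the right of their list medians.

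HOX genes, which set position along the body axis, were broadly above the reference levels. Of 27 measured genes 26 were above the first level and 18 (66.7%) above both, against 75.5% and 47.7% of all genes. By cluster, 7 of 10 HOXB genes, 4 of 7 HOXC genes, 6 of 9 HOXD genes and the 1 HOXA gene measured, HOXA2, were above both. HOXD10 read 11.32, 11.47 and 11.44 (11.41 ± 0.08, percentile 97.3). HOXB9 read 10.92, 10.84 and 10.87 (10.88 ± 0.04, percentile 94.4). HOXC9, of the same paralogue group as HOXB9, read 9.35, 9.32 and 9.38 (9.35 ± 0.03).

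Genes at the posterior end of the clusters were not uniformly high. HOXD13 (9.27 ± 0.02) and HOXC13 (8.35 ± 0.17) were above both levels. HOXD12, which lies between HOXD11 and HOXD13 in its cluster, read 4.91, 4.92 and 4.90 (4.91 ± 0.01) and was the 1 gene not above the first level, chosen for mention after its value was seen. Among the anterior genes HOXB2 (9.78 ± 0.02) and HOXB3 (8.69 ± 0.07) were above both.

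**Figure D3:**
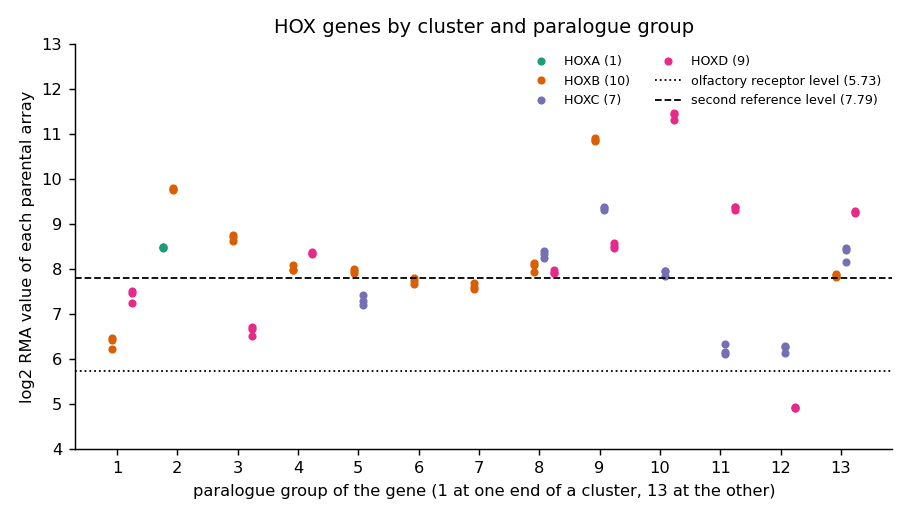
Log2 RMA value of each of the 3 parental arrays for 27 HOX genes, by paralogue group and coloured by cluster. HOXD10 (mean 11.41) and HOXB9 (10.88) lie highest, and HOXD12 (4.91) is the 1 gene below the dotted olfactory receptor level at 5.73.

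Other families of developmental transcription factors held a few bright members each. Of 19 SOX factors 6 were above both levels, led by SOX4 (9.28 ± 0.01) and followed by SOX2, SOX9 (8.29 ± 0.09), SOX3, SOX5 (7.90 ± 0.02) and SOX18 (7.89 ± 0.04). Of 9 PAX factors 3 were above both, PAX9 (8.68 ± 0.05), PAX6 and PAX3 (8.005 ± 0.09). In the network that holds SIX2, EYA1 and DACH1, which acts in kidney, ear and muscle primordia, 6 of 11 genes (54.5%) were above both. Among them were SIX4 (9.78 ± 0.02), EYA3 (9.41 ± 0.02), EYA4 (9.33 ± 0.07) and DACH1 (9.03 ± 0.05). GATA6, a factor of endoderm and heart, read 9.96, 9.98 and 10.09 (10.01 ± 0.07). Of 6 GATA factors 3 (50%, against 47.7% of all genes) were above both levels.

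T-box factors had 5 of 16 above both, the highest being TBX18 (9.75 ± 0.01), a factor of urogenital mesenchyme and heart, and TBX20 (9.06 ± 0.09). TBXT, which encodes the mesodermal factor brachyury, was between the levels at 6.19 ± 0.20. LIM homeobox factors had 3 of 12 above both (LHX2, ISL2 and LMX1B, at 8.21, 8.01 and 7.92), and POU factors 3 of 12 (POU4F1, POU3F2 and POU3F3, at 9.12, 8.97 and 7.997). POU4F1, also known as BRN3A, and POU3F2, also known as BRN2, are best known from neurons.

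All 26 NKX, DLX, MSX and IRX homeobox genes were above the first level, but 8 (30.8%) were above both, fewer than the 47.7% of all genes. DLX2 (9.35 ± 0.04), NKX2-5 (9.19 ± 0.05) and MSX2 (8.90 ± 0.13) were the highest of them. Of 39 FOX factors 36 were above the first level and 19 (48.7%) above both, near the share of all genes. FOXJ3 (10.89 ± 0.02), FOXK2 (10.88 ± 0.04) and FOXM1 (10.30 ± 0.04), the last a driver of mitotic genes, led that list.

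Among 46 basic helix-loop-helix factors 32 were above the first level and 12 above both. The inhibitors ID2 (10.98 ± 0.09) and ID4 (9.74 ± 0.10), the Notch targets HES1 (10.02 ± 0.02), HEY1 (9.98 ± 0.04), HEY2 (9.28 ± 0.05) and HES4 (9.24 ± 0.06), and the broadly used partners TCF12 (10.69 ± 0.03), TCF4 (10.55 ± 0.04) and TCF3 (9.02 ± 0.03) were 9 of the 12. The 14 members not above the first level ran from 4.28 to 5.81. Of 25 KLF and SP factors 13 (52%, against 47.7% of all genes) were above both, led by SP1 (10.20 ± 0.06), which binds GC boxes.

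Adhesion genes split into few bright members and many dim ones. Of 21 cadherins 9 were above the first level and 3 above both, which were CDH2, CDH1 and the P-cadherin gene CDH3 (8.38 ± 0.10). CDH6, a cadherin of the developing proximal tubule, read 4.32, 4.59 and 4.52 (4.48 ± 0.14), and CDH11, of mesenchyme, 4.66, 4.71 and 5.01 (4.80 ± 0.19). Both were below the olfactory receptor level in all arrays.

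Claudins, the proteins that seal tight junctions, had 4 of 23 members above both levels. CLDN1 read 10.63, 10.57 and 10.48 (10.56 ± 0.08), and CLDN12 (10.33 ± 0.06), CLDN15 (8.42 ± 0.04) and CLDN3 (7.86 ± 0.03) were the other members. CLDN2 (5.29 ± 0.13), of the leaky proximal tubule, and CLDN16 (4.21 ± 0.11), of the thick ascending limb, were not above the first level. Among 15 connexins, the gap junction channel proteins, GJC1 (10.53 ± 0.07), GJA1 (9.21 ± 0.04) and GJB2 (7.97 ± 0.02) were above both. Of 48 keratins, KRT8, KRT18 and KRT19 (9.61 ± 0.10) were above both, and 25 that were not above the first level ran from 3.40 to 5.73.

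Integrins, which anchor cells to matrix, had 19 of 25 subunits above the first level and 8 above both. ITGB1, the most widely shared beta subunit, read 10.14, 9.97 and 9.96 (10.02 ± 0.10). Alpha subunits above both levels were the laminin-binding ITGA6 (9.87 ± 0.08), the collagen-binding ITGA2 (9.54 ± 0.03), the fibronectin receptors ITGA5 (9.36 ± 0.02) and ITGA4 (8.93 ± 0.03), ITGAV (9.61 ± 0.02) and ITGA8 (8.69 ± 0.08), which is known from kidney mesenchyme. ITGB5 (8.99 ± 0.02) was the other beta subunit, and ITGB3 (5.98 ± 0.03), another partner of ITGAV, was between the levels. The leukocyte subunits ITGAL (4.95 ± 0.17), ITGAM (5.50 ± 0.05) and ITGAX (5.37 ± 0.10) were not above the first.

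Of 10 laminin subunits 6 (60%, against 47.7% of all genes) were above both levels. LAMC1 (10.73 ± 0.03), LAMB1 (10.47 ± 0.06) and LAMA1 (8.92 ± 0.03), which assemble into a laminin of embryonic basement membranes, were among them, together with LAMA4, LAMB2 and LAMA5. LAMB3, a chain of epidermal laminin, was between the levels at 5.82 ± 0.05. Collagens were lower, with 7 of 43 (16.3%) above both. COL14A1 (9.49 ± 0.03) was the highest, the basement membrane chains COL4A1 (8.02 ± 0.04) and COL4A2 (8.13 ± 0.03) were also above both, and COL1A1 (7.66 ± 0.09), of fibrillar matrix, was between the levels.

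Enzymes of central metabolism were high, and like bright genes at large they had close replicates. All 17 citrate cycle enzymes were above both levels, with a median percentile of 91.7. Of 73 nuclear-encoded subunits of oxidative phosphorylation 70 were above the first level and 63 (86.3%) above both. Of 23 glycolytic isozymes 21 were above the first and 15 above both.

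GAPDH, a glycolytic dehydrogenase, read 13.33, 13.33 and 13.28 (13.31 ± 0.03) and ranked 2 among all genes. The isozymes of one step differed in their place in the distribution. LDHA (12.54 ± 0.02) and LDHB (12.78 ± 0.01) were both in the top percent of genes, and the testis form LDHC (6.21 ± 0.13) was between the levels. Among hexokinases HK2 (9.52 ± 0.08) and HK1 (8.89 ± 0.02) were above both, and HK3 (5.47 ± 0.21) was not above the first level. PKM (12.41 ± 0.01) was high and PKLR (6.21 ± 0.05), the liver and red cell form, between the levels. TPI1 had probesets that read 6.65 and 12.55, and its place rests on the brighter one.

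Glucose import was represented by SLC2A1, the widely expressed transporter GLUT1, at 10.70, 10.85 and 10.84 (10.80 ± 0.08), while SLC2A2, the liver and tubule form, read 4.11 ± 0.17 and SLC5A1, the sodium-coupled form, 4.25 ± 0.09. Of 13 gluconeogenesis and glycogen genes 6 were above both levels. PYGL (10.88 ± 0.06), a glycogen phosphorylase, and the mitochondrial PCK2 (9.58 ± 0.18) were among them. The kidney and liver enzymes PCK1 (5.71 ± 0.07), FBP1 (5.07 ± 0.13) and G6PC1 (4.11 ± 0.12) were not above the first level.

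Serine and one-carbon enzymes were 14 of 15 above both levels, with a median percentile of 88.2. PHGDH, the first enzyme of serine synthesis, read 12.12, 12.14 and 12.04 (12.10 ± 0.05, percentile 99.2). SHMT2, the mitochondrial enzyme that takes a carbon from serine, read 12.10, 12.17 and 12.06 (12.11 ± 0.06). ALDH1L1 (6.32 ± 0.12), a cytosolic folate enzyme, was the 1 member between the levels, and its mitochondrial relative ALDH1L2 read 9.95, 10.13 and 9.66 (9.91 ± 0.24), the widest spread of the list.

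In glutamine and urea cycle metabolism 9 of 15 were above both. GLUL, glutamine synthetase, read 12.23, 12.22 and 12.14 (12.20 ± 0.05), and its other probeset read 10.97. ASS1, which makes argininosuccinate and is lost in some tumours, read 9.85, 10.05 and 9.72 (9.87 ± 0.17). The liver urea cycle enzymes OTC (4.18 ± 0.10) and ARG1 (3.61 ± 0.06) were not above the first level, whereas ARG2 (9.67 ± 0.08), the mitochondrial arginase of kidney, was above both. Of 18 cholesterol and fatty acid synthesis enzymes 16 were above both, led by SCD (11.82 ± 0.07) and ACLY (11.78 ± 0.02).

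Drug handling genes were uneven. Of 13 drug-metabolising cytochrome P450 genes and their partners, 1 was above both levels, the electron donor POR (9.08 ± 0.03). CYP3A4 (3.84 ± 0.15), CYP2B6 (3.89 ± 0.08) and CYP2C8 (4.02 ± 0.10) were below the first. Of 31 drug transporters 10 were above both, among them the nucleoside carrier SLC29A1 (10.79 ± 0.03), the efflux pumps ABCC4 (10.14 ± 0.05), ABCC1 (9.83 ± 0.03) and ABCB1 (8.45 ± 0.11), and the cation exchanger SLC47A1 (9.38 ± 0.06). ABCG2, another efflux pump, was between the levels at 7.03 ± 0.16.

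Most G protein-coupled receptors for small ligands were dim. The proteins that carry their signals were above both levels somewhat more often than genes at large. Of 35 aminergic receptors 16 were above the first level and 2 (5.71%) above both, ADRA2C and HTR1D. Of 66 peptide and hormone receptors 32 were above the first and 2 (3.03%) above both, QRFPR and GPR50. Of 36 lipid, nucleotide and protease receptors 4 were above both, and of 20 chemokine receptors none. By contrast, 24 of 42 G protein, cyclase, phospholipase, kinase and arrestin genes were above both (57.1%, against 47.7% of all genes). The 8 of them not above the first level ran from 4.13 to 5.85.

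ADRA2C, an adrenergic receptor, read 8.56, 8.65 and 8.53 (8.58 ± 0.06), and HTR1D, a serotonin receptor, 8.30, 8.42 and 8.42 (8.38 ± 0.07). All 6 values lay above the second reference level. The adrenergic receptor ADRB1 (7.42 ± 0.08) and the dopamine receptors DRD4 (7.34 ± 0.07) and DRD2 (7.09 ± 0.09) were between the levels, and 19 members not above the first ran from 3.37 to 5.51.

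GPR50, a melatonin receptor relative without a known hormone, read 8.64, 8.55 and 8.57 (8.59 ± 0.05). QRFPR, a neuropeptide receptor, read 8.90 ± 0.08 by one probeset, while its other probeset read 3.26. Among lipid and protease receptors LPAR3 read 9.18, 9.21 and 9.19 (9.19 ± 0.02), and F2R, the thrombin receptor, 9.10, 9.07 and 9.02 (9.06 ± 0.04). ADORA2B, an adenosine receptor, read 8.76, 8.93 and 8.97 (8.89 ± 0.11), and LPAR1 was the other of the 4 (7.95 ± 0.08). P2RY1 (7.81 ± 0.02) and S1PR2 (7.84 ± 0.07), for nucleotides and sphingosine phosphate, had at least 1 array below the second reference level. CXCR4 (7.86 ± 0.16) was the highest chemokine receptor, also between the levels by that rule.

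Frizzled and adhesion receptors were brighter than those receptor lists, with 18 of 32 (56.2%, against 47.7% of all genes) above both levels. ADGRL2 (10.85 ± 0.02), a latrophilin, FZD3 (9.99 ± 0.01) and FZD6 (9.42 ± 0.12), receptors of Wnt and planar polarity signals, and SMO (9.05 ± 0.04), the transducer of Hedgehog signals, were among them. Of the signal carriers, GNB1 (12.12 ± 0.02) was the highest beta subunit, and the alpha subunits GNAS (10.14 ± 0.03), GNAQ (10.06 ± 0.10), GNA11 (9.95 ± 0.03), GNA13 (10.32 ± 0.07) and GNAI2 (10.16 ± 0.05) were all above both. For GNAI2 the other probeset read 7.22.

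Receptor tyrosine kinases had 41 of 53 above the first level and 22 (41.5%) above both. EPHA7, an ephrin receptor, read 10.92, 10.82 and 10.87 (10.87 ± 0.05). IGF1R, the receptor of insulin-like growth factors, read 10.75, 10.80 and 10.79 (10.78 ± 0.03), and its other probeset read 8.63. MET, which binds hepatocyte growth factor, read 10.31, 10.25 and 10.29 (10.29 ± 0.03). ERBB4 (9.68 ± 0.06), FGFR2 (9.31 ± 0.04), KIT (8.98 ± 0.06) and ERBB2 (8.58 ± 0.02) were also above both, and the 12 members not above the first level ran from 3.98 to 5.76.

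All 13 TGF-beta family receptors were above the first level and 10 above both. BMPR2 (10.57 ± 0.03), TGFBR3 (9.46 ± 0.04), TGFBR1 (9.35 ± 0.04) and TGFBR2 (8.31 ± 0.04) were among the 10, and the endothelial receptors ENG (6.74 ± 0.14) and ACVRL1 (7.41 ± 0.14) were between the levels. Of 39 nuclear receptors 17 (43.6%, against 47.7% of all genes) were above both. NR3C1, the glucocorticoid receptor, read 9.61 ± 0.04, PPARG, the receptor that drives fat cell formation, 9.32 ± 0.03, and NR2F1 9.05 ± 0.03.

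Of 39 cytokine receptors 12 were above both, mainly shared and widely expressed chains. They included LIFR (10.08 ± 0.03), IL6ST (10.03 ± 0.12), IFNAR1 (9.82 ± 0.09), IFNGR1 (8.90 ± 0.08), IFNGR2 (9.13 ± 0.03) and TNFRSF1A (8.83 ± 0.02). Of 29 innate sensing genes 5 were above both, which were the adaptors MYD88 (9.32 ± 0.07) and MAVS (9.10 ± 0.07), the kinase TBK1 (9.09 ± 0.01), IRF3 (8.60 ± 0.02) and STING1 (8.80 ± 0.06). The RNA sensor RIGI (7.66 ± 0.14) and the DNA sensor IFI16 (6.08 ± 0.03) were between the levels, and 13 members not above the first ran from 3.56 to 5.73.

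Ion channels were mostly near the reference levels. Of 85 potassium channel subunits 51 were above the first level and 5 (5.88%) above both. The highest were KCNMB4 (9.54 ± 0.02), an accessory subunit of large-conductance channels, and KCNQ5 (9.14 ± 0.06), and KCNH2 (7.65 ± 0.10), of the cardiac rapid delayed rectifier, was between the levels. Of 12 voltage-gated sodium channel subunits 1 was above both, SCN9A, at 7.91, 7.95 and 7.84 (7.90 ± 0.06). SCN8A was between the levels at 7.65 ± 0.07.

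Voltage-gated calcium channels had 6 of 25 subunits above both, and none of the 6 forms a pore. They were CACNA2D1 (9.71 ± 0.07), CACNA2D3, CACNB1, CACNB2, CACNB3 and CACNG8, all auxiliary subunits. The highest pore-forming subunit was CACNA1H (7.48 ± 0.11), between the levels. None of 20 GABA-A and glycine receptor subunits was above both, and 1 of 17 ionotropic glutamate receptor subunits was, GRID1 (8.09 ± 0.09). CHRNA5, a nicotinic acetylcholine receptor subunit that needs partners to form a channel, read 11.30, 11.22 and 11.22 (11.25 ± 0.05, percentile 96.7). CHRNA3 (6.50 ± 0.04) and CHRNB4 (7.50 ± 0.15), with which it often assembles, were between the levels.

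Channels of calcium stores, volume and membrane tension were brighter than those channel lists, with 13 of 21 (61.9%, against 47.7% of all genes) above both. ORAI1 (8.25 ± 0.00022) and STIM1 (8.58 ± 0.04), the pore and the sensor of store-operated calcium entry, and ITPR1, ITPR2 and ITPR3 (8.49, 9.09 and 9.77), the calcium release channels, were all above both. ASIC1, an acid-sensing channel, read 9.48, 9.44 and 9.37 (9.43 ± 0.05), and LRRC8A (8.65 ± 0.08), the volume-regulated anion channel, was above both too. PIEZO1, a mechanosensitive channel, read 9.36, 9.57 and 9.43 (9.45 ± 0.11) by one probeset and 6.74 by the other. Of 23 TRP channels 6 were above both, among them TRPM7 (9.97 ± 0.01), TRPC1 (9.12 ± 0.03) and MCOLN3 (10.33 ± 0.06). P2RX4 (8.19 ± 0.03) was the 1 of 6 ATP-gated P2X subunits above both.

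**Figure D4:**
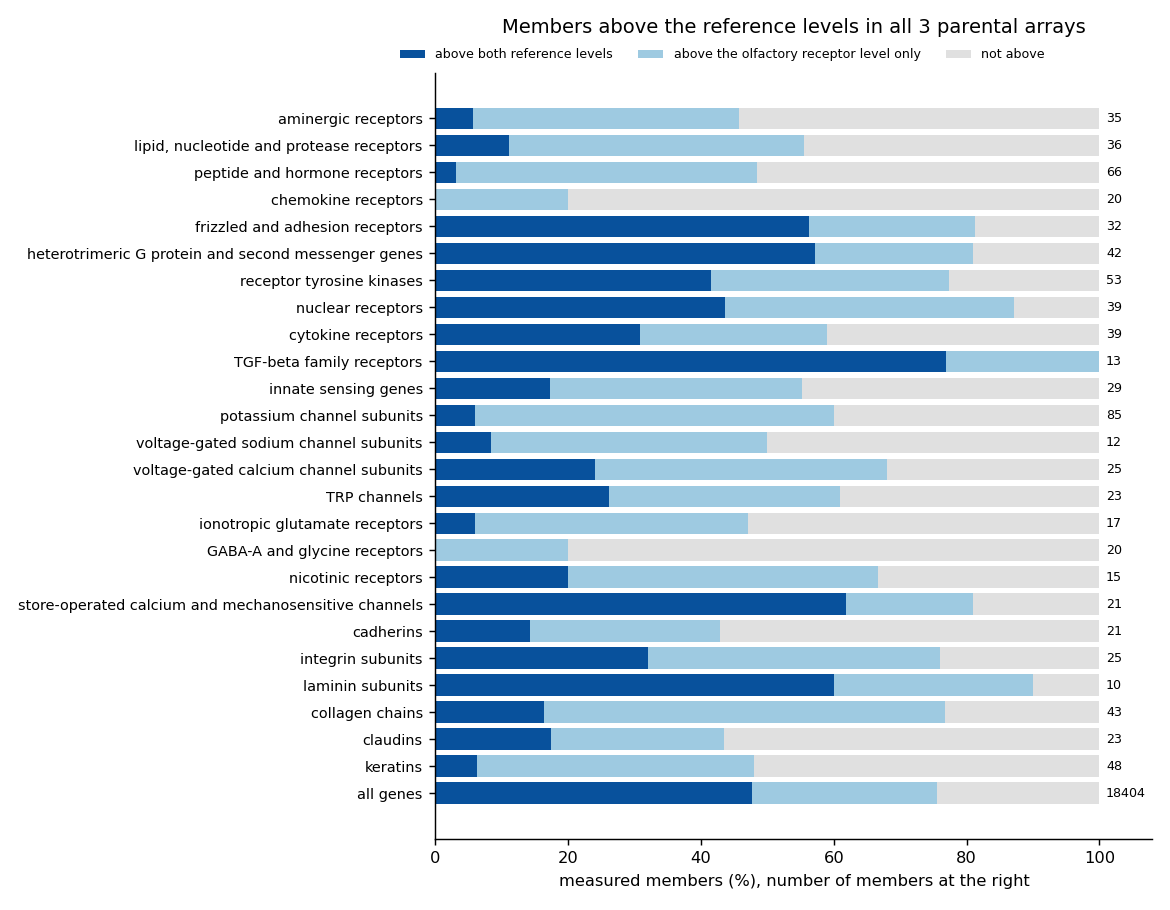
Percent of measured members of 25 receptor, channel and adhesion lists that lay above both reference levels (dark), above the olfactory receptor level only (light) or not above it (grey) in all 3 parental arrays, with the number of members at the right and all 18404 genes at the bottom. Aminergic (5.71%), peptide (3.03%) and potassium channel (5.88%) lists have short dark bars beside the 47.7% of all genes, and TGF-beta family receptors (76.9%) the longest.

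A hand-written list of genes for the transgene and transformation context, among them cell cycle regulators and TERT, was mostly bright. Of 15 measured in that list, 14 were above both levels (93.3%, against 47.7% of all genes). MDM2, a ubiquitin ligase, read 11.48, 11.47 and 11.49 (11.48 ± 0.01). RB1, the retinoblastoma protein, read 11.25, 11.05 and 11.04 (11.11 ± 0.12), and its relatives RBL1 and RBL2 read 9.73 ± 0.01 and 9.46 ± 0.05. CDKN2A, which encodes the inhibitors INK4A and ARF, read 10.16, 10.16 and 10.17 (10.16 ± 0.01).

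MYC (10.61 ± 0.03), E2F1 (9.25 ± 0.03) and CCNE1 (9.74 ± 0.09), drivers of entry into S phase, were above both as well. TERT, the telomerase protein, read 7.72, 7.97 and 7.95 (7.88 ± 0.14). Replicate 1 of TERT lay below the second reference level, so that gene was between the levels by the rule.

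Proliferation genes were bright throughout. All 20 DNA replication genes and all 20 mitotic genes were above both levels, with median percentiles of 92.4 and 93.3. TOP2A (11.91 ± 0.06), which untangles chromosomes, PLK1 (11.77 ± 0.02), a mitotic kinase, MCM7 (11.74 ± 0.04), of the replicative helicase, and RFC3 (11.79 ± 0.01), of the clamp loader, were the highest. The list medians of their SDs were 0.0438 and 0.0528, below the 0.0700 of all genes but above the 0.0405 of the brightest 10% of genes.

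Stress response genes were also high. All 11 heat shock genes were above both, from HSPE1 (8.36 ± 0.08) to HSPA8 (12.996 ± 0.04). All 14 genes of the amino acid response, whose transcription ATF4 drives, were above both, among them ASNS (10.28 ± 0.16), SLC7A11 (11.22 ± 0.11), CHAC1 (9.28 ± 0.13) and DDIT3 (8.87 ± 0.14). Immediate early genes were lower, with 17 of 18 above the first level and 7 above both. JUN read 10.28 ± 0.03 and EGR1 7.91 ± 0.01, while FOS (6.60 ± 0.11) was between the levels.

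All 61 cytosolic ribosomal proteins were above the first level, 55 above both, and their median percentile was 99.01. Beyond these, the 25 brightest genes included elongation factors, glycolytic enzymes, actins, a tubulin and subunits of the ATP synthase. H1-4, a linker histone, led with 13.34, 13.31 and 13.33 (13.33 ± 0.02). Next came GAPDH, FAF2 (13.26 ± 0.01) and ENO1 (13.10 ± 0.04). EEF1A1, EEF1G and EEF2, elongation factors, stood at 13.09, 12.77 and 12.64, the tubulin TUBB at 13.05, and the actins ACTG1 and ACTB at 12.98 and 12.73. ATP5MC1 and ATP5F1B, of the ATP synthase, read 12.88 and 12.73, COX6A1 13.04, and the ADP and ATP carrier SLC25A5 12.64.

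HSPA8, PTMA, UBB, LDHB, SLIRP, OAZ1, DAD1, ERH and TMBIM6 were the other protein-coding genes among the 25, and the ribosomal pseudogene RPL13AP5 (12.97 ± 0.05) was there as well. Some of these places rest on 1 probeset. PLCG2, a phospholipase of blood cells, read 12.995 ± 0.03 by one probeset and 8.31 by the other, and FAF2 read 11.24 by its other probeset. PTMA had 6 probesets between 6.94 and 12.99. Over all 637 genes with several probesets the median range between them was 1.28, and it was over 1 for 375 (58.9%), so the level given for such a gene depends on the probeset taken, here the brightest. Whether RNA of other genes bound to these probesets could not be examined, since probe sequences were not used here.

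The arrays were close to one another. Pearson correlations across the 18404 genes, which are not independent replicates, were 0.998 for each of the 3 pairs. The median absolute difference was 0.0842 between replicates 1 and 2, 0.0891 between 1 and 3 and 0.0659 between 2 and 3. At most 6 genes differed by more than 1 in a pair. The median SD of a gene was 0.0700, and it was 0.0510 for genes above both levels and 0.0970 for genes not above the first.

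Replicate spread depended on level. The median SD was highest in decile 3 of the genes by level, counted from the dimmest, at 0.106, and lowest in the brightest decile, at 0.0405. Replicate 1 stood slightly apart, and the shift changed sign with level. It was the lowest array for 60.4% to 62.7% of genes in deciles 2 to 4 and the highest for 59.6% of genes in the brightest decile. The median deviation of replicate 1 from the mean reached -0.0652 in decile 3 and 0.0251 in decile 10, and the other 2 arrays lay on the opposite side.

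**Figure D5:**
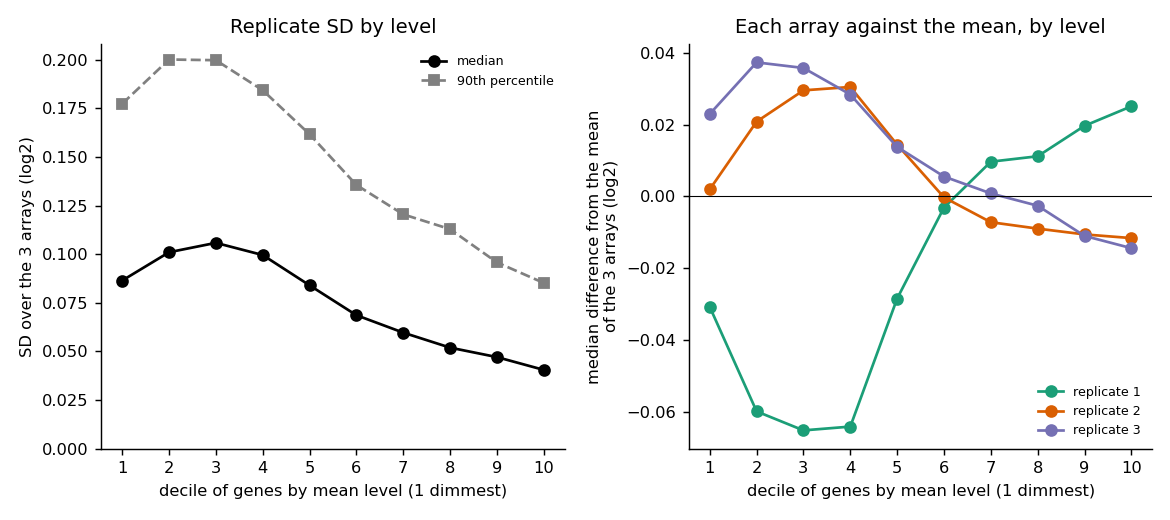
Left, the median and the 90th percentile of the SD over the 3 parental arrays in each decile of genes by mean log2 RMA level. Right, the median difference of each array from the mean of the 3 in the same deciles, where replicate 1 is below the others in dim deciles (to -0.0652) and above them in the brightest (0.0251).

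Lists of bright genes shared that pattern. With each array centred on its median, replicate 1 was the highest array for 24 of 28 proteasome subunits and for 15 of 20 genes in both the DNA replication and the mitotic lists. Over all genes it was the highest for 7236 of 18404. Replicate 3 was the lowest for 12 of 14 amino acid response genes, for instance ASNS, at 10.33, 10.41 and 10.10, and over all genes it was the lowest for 5671 of 18404.

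Among genes above the first level, FAM86B2-DT, a non-coding transcript, had the largest SD, at 6.003, 6.35 and 7.11 (6.49 ± 0.57), and was the 1 such gene with an SD over 0.5. H2BC4, a replication-dependent histone, read 9.51, 9.08 and 8.65 (9.08 ± 0.43). The histone pseudogene H2BC19P read 7.13, 7.03 and 6.46 (6.87 ± 0.36), also lowest in replicate 3. APOBEC3B, a cytidine deaminase, read 7.41, 7.33 and 6.73 (7.16 ± 0.37), with replicate 3 again the lowest.

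ETV1 and ETV5, ETS factors whose mRNA follows growth factor signals, were lowest in replicate 2. ETV1 read 8.14, 7.46 and 7.99 (7.86 ± 0.36), and ETV5 6.91, 6.17 and 6.71 (6.60 ± 0.38). The rest of the 15 most variable genes were EOLA1-DT, PCDHA13, TAS2R4, ZBTB22, OR12D3, MOG, LINC00965, TAS2R45 and SND1-IT1, with SDs between 0.36 and 0.43. Of these, ZBTB22, OR12D3, MOG and LINC00965 have more than 1 probeset. For genes above both levels the SD was under 0.1 in 86.8% of cases.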

How the data were processed

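RNA of 3 samples titled parental HEK293 Flp-In was measured, 1 array each. The deposited values were log2 expression levels of 32321 probesets, for which the submitters' processing notes name RMA and affy without versions. RMA makes probe distributions equal between arrays, so total mRNA per cell cannot be read from these values. Whether the authors ran it on all arrays of the series at once, and with which annotation and build, is not given in the sources used here.

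The annotation table given for the array gave 1 symbol to 19158 probesets, several to 1388 and none to 11775. Genes were named from the first kind alone, of which 19128 were found in RefSeq (GRCh38.p14) through their gene ID and 30 were not. These probesets stood for 18404 genes, each represented by its brightest probeset over the parental arrays. Promoter sequences came from RefSeq. A comparison of promoter composition with level is not reported here, because 14228 of 18404 genes, under 80%, had a listed promoter.

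Means, SDs, percentiles and counts above the 95th percentile of the reference genes were computed with pandas 2.3.3 in Python 3.11.15, and the steps were tested on simulated data. With 1 group there was no test and no p-value. Of 1061 entries in the hand-written lists, 956 were measured, and others were filled by symbol patterns, 81 lists in all. The members and lists were chosen with earlier results of these data known, and a few patterns were narrowed after values were seen, to drop symbols that are not family members. The genes named were the 25 brightest (without ribosomal proteins and unnamed or small RNA loci), any member of a list of up to 25 genes, up to 15 above the first level in longer lists, the 15 most variable above it and the 3 nearest it on each side. Alternatives were other reference percentiles, the second reference set alone, the mean in place of all arrays, other probeset choices, all probesets, other normalizations and each array left out.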

Additional observations from a re-analysis of the deposited data

Results flagged for a closer look

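Probesets outside the gene-level description also carried signal. Of 11775 probesets without a gene symbol, 2692 were above both reference levels in all 3 parental arrays, although their median of 5.63 lay below the olfactory receptor level. Of 1388 probesets with several symbols, 615 were above both. Both counts were singled out because these probesets enter no other value here, and no gene was named from them. Groups of 3 arrays are too small for a search for single outlying arrays.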

How the results depend on the processing

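No paired analysis was possible because there is 1 group and no test. For genes above the reference level, the count of 13902 stayed between 12212 and 14533 with the olfactory receptor level at its 99th or 90th percentile, with means in place of all arrays, with other probeset choices and with other normalizations. It fell to 8779 with the second reference set in place of the first, where the same percentile lay at 7.79 and not at 5.73. The count therefore depended on which set of usually silent genes was taken. Over all probesets it was 20808 of 32321. Leaving out 1 array gave 13824 to 13944. The replicate spread, a median SD of 0.0700, was 0.0833 over all probesets. It was 0.0467 to 0.0630 with 1 array left out, the lowest value being that without replicate 1. For the same noise a median SD of 2 arrays is lower than one of 3, so those values cannot be compared directly with 0.0700. Of 81 lists, the count above the level moved by over 1.5 times in 55 with the second reference set, in 14 with the 99th percentile, in 2 with the 90th, in 1 with the lowest probeset of a gene and in 1 with the mean of the 3 arrays. The median percentile of every list ranged by less than 5 points over the settings that change it, at most 4.82. Dim genes had the larger SDs, and a level between both references is not distinguishable from silent genes on these arrays.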

Other observations

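Some genes whose mRNA follows growth factor signalling through the MAP kinase pathway differed between replicates in the same direction. They were chosen after their values were seen. Relative to the mean of replicates 1 and 3, replicate 2 was lower by these log2 amounts, written as signed differences: -0.64 for ETV5, -0.61 for ETV1, -0.34 for DUSP6, -0.33 for SPRY4, -0.30 for SPRED2 and -0.24 for ETV4. Other genes of the pathway did not share the shift. The difference was 0.08 for SPRY1, -0.06 for SPRY2, -0.07 for DUSP4, -0.01 for FOS and -0.01 for FOSL1. It was -0.08 for SPRED1, 0.03 for PHLDA1, -0.002 for EGR1, -0.02 for IER3 and -0.09 for CCND1, the other genes looked at. Of the genes with the shift, only SPRED2 was above both reference levels. SPRY4, at 5.55, 5.09 and 5.27, was not above the first, and the others were between the levels. The arrays give no error for a difference of 1 array from 2.

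By chromosome, the share of genes above both reference levels ran from 38.2% of 1232 genes on chromosome 11 to 54.2% of 264 genes on chromosome 18. The share above the olfactory receptor level ran from 64.6% of 694 genes on the X chromosome to 85.1% of 759 genes on chromosome 16. Both shares also count the reference genes, which set the levels and so are mostly not above both. How far the places of these genes on the chromosomes shape the shares was not tested.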
